A study of Homo sapiens with 9 samples.

Results

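Bending of the culture plate into a convex shape was compared with a flat plate in early human neuroepithelium, in 3 convex and 3 flat libraries of the 9 in the series. The other 3 libraries came from plates bent the opposite way, to a concave shape. All cells were H9, a wild-type line of human embryonic stem cells in long use. They had been kept pluripotent for 72 h in mTeSR1, on PDMS (a silicone rubber) coated with Matrigel, and then for 48 h in N2B27 medium with SB431542 and LDN, the dual SMAD inhibition that starts neural induction. In the convex group the plate was bent for a further 24 h, and in the flat group it was left as it was for the same 24 h. Inhibitors were present in both groups throughout, so the flat cultures are untreated with respect to curvature only. H9 is 1 line, and whether replicate libraries are from separate cultures is not stated, so the p-values reflect the scatter among these libraries alone and part of it may be technical. Polyadenylated RNA was counted per gene, with totals of 64352611, 63797258 and 58640365 counts in convex libraries 1, 2 and 3 and 57742852, 49420082 and 59511953 in flat libraries 1, 2 and 3.

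The neural plate is a sheet of columnar cells joined by apical junctions, and it bends into a tube through actomyosin contraction at its cell surfaces and through forces from the tissue around it. Cells sense curvature and stretch through integrins and focal adhesions, stretch-gated ion channels, membrane-bending BAR domain proteins and caveolae, the nuclear lamina, and the transcriptional co-activators YAP and MRTF. At the stage sampled here, cells under SMAD inhibition lose pluripotency genes and gain early neuroectoderm genes.

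Libraries carry the same numbers, 1 to 3, in both groups, and libraries of the same number deviated together from their group means, so each convex library was also set against the flat library of its number. What a number shares across groups is not stated in the labels. A gene was counted as higher or lower in all 3 pairs when its log2 difference in CPM (counts scaled to a common library size with TMM factors) was at least 0.25 in that direction in every pair. This was done for the 11956 genes that averaged at least 5 CPM over the 6 libraries. Of these, 617 (5.16%) were higher and 895 (7.49%) lower in the convex library of every pair. The 3 pairs were not equally far apart. The standard deviation of the differences over these genes was 0.34 for pair 1, 0.696 for pair 2 and 0.269 for pair 3. Flat 2 was the library with the fewest counts. When flat 2 was replaced by the mean of flat 1 and flat 3, 423 genes (3.54%) were higher and 376 (3.14%) lower in all 3 comparisons. These held 332 of the 617 higher genes (53.8%) and 326 of the 895 lower ones (36.4%). The replacement sets convex 2 against libraries of other numbers, so a gene lost there can reflect flat 1 or flat 3 as well as flat 2. Pairs 1 and 3 alone, a looser rule of 2 pairs, gave 789 genes higher (6.60%) and 1061 lower (8.87%). Scaled by library size alone, 733 genes were higher and 678 lower. Every convex library was above every flat one for 880 genes (7.36%) and below for 1300 (10.9%), which is the background for each gene at 5 CPM or more described as having groups that did not overlap.

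No single gene passed edgeR's test of the groups. The quasi-likelihood test called 0 of 23075 genes at an adjusted p under 0.05 (0% of those tested), with a smallest adjusted p of 0.513 and 2135 genes (931 higher, 1204 lower) at p under 0.05 before adjustment. With the replicate number as a block, edgeR again called 0 (0%), with a smallest adjusted p of 0.264 and 4222 genes at an unadjusted p under 0.05. DESeq2 called 1 gene without the block and 189 (0.819%) with it, 97 higher and 92 lower. Limma voom called 0 in both designs. Among the 103 genes of those 189 that averaged at least 5 CPM, 39 were higher and 60 lower in all 3 pairs. Leaving out flat 3 turned the blocked edgeR test to 1859 calls, 901 higher and 958 lower, and left the test without a block at 0. The genes below are therefore described by their values in each library, and all of those chosen by rule had an adjusted p of at least 0.513 in edgeR, or 0.264 with the block. DESeq2 with the block called 43 of the 139 genes named by rule. Its adjusted p is given below, as blocked DESeq2, only for some of those 43. Most genes named by rule were not called by it. Its adjusted p was 0.360 for ADM, 0.0594 for B2M, 0.230 for KMT2D, 0.0744 for MT-ND5, 0.196 for DDIT4 and 0.0922 for TRIO.

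The antisense RNA called by DESeq2 without the block, ENSG00000270871, stood at 4.91, 3.502 and 7.37 CPM in convex libraries 1, 2 and 3, against 1.36, 0.779 and 1.92 CPM in the flat ones (DESeq2 adjusted p = 0.0379, log2 fold change 1.95, SE 0.406). Every convex library was above every flat one. This RNA averaged below 5 CPM over the 6 libraries, so it is outside the genes of the background given above.

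Genes that were higher under convex bending in every pair are given first, starting with those whose smallest pair difference was largest. RYR3 (ENSG00000198838, GRCh38 chromosome 15, 33310945 to 33866121), an intracellular calcium release channel, had 5.92, 5.35 and 11.8 CPM in convex libraries 1, 2 and 3, against 1.87, 2.17 and 5.27 CPM in flat libraries 1, 2 and 3. The groups were separated by a narrow margin, and the pair differences were 1.64, 1.29 and 1.16 on the log2 scale (edgeR log2 fold change 1.31, SE 0.465, adjusted p = 0.513, blocked DESeq2 adjusted p = 0.0069). LHX4 (ENSG00000121454, GRCh38 chromosome 1, 180230286 to 180278982), a LIM homeobox transcription factor, had 6.65, 5.18 and 11.1 CPM in convex libraries, against 1.94, 0.884 and 5.36 CPM in flat ones. Its lowest convex library was below the highest flat one, but each convex library exceeded the flat library of its number. HTR1A, a serotonin receptor, had 3.75, 9.89 and 9.98 CPM in convex libraries, against 1.597, 2.63 and 5.67 CPM in flat ones, and pair 2 was still 1.70 higher when flat 2 was replaced (blocked DESeq2 adjusted p = 0.00113). The hypoxia-induced vasodilator peptide ADM had 3.16, 3.89 and 25.9 CPM in convex libraries, against 0.429, 1.73 and 10.999 CPM in flat ones. Its convex and flat ranges overlapped widely, and library 3 was the highest of each group.

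GABBR1 (ENSG00000204681, GRCh38 chromosome 6, 29555629 to 29633976), a subunit of the GABA-B receptor, had 107, 129.7 and 185 CPM in convex libraries, against 68.3, 68.2 and 119 CPM in flat ones. Convex library 1 was below flat library 3, yet the 3 pair differences were alike, at 0.65, 0.93 and 0.64 (blocked edgeR log2 fold change 0.73, SE 0.1502, adjusted p = 0.264, blocked DESeq2 adjusted p = 0.0186). RTL5, a gene derived from a retrotransposon, had 13.6, 22.2 and 22.4 CPM in convex libraries, against 7.63, 12.8 and 12.05 CPM in flat ones, with no overlap between the groups and pair differences of 0.84, 0.79 and 0.89. The sugar transporter gene SLC2A11 had 13.9, 14.5 and 28.97 CPM in convex libraries, against 7.73, 8.48 and 12.6 CPM in flat ones, again with no overlap by a narrow margin. Against the mean of flat 1 and flat 3, the difference of convex 2 was 1.21 for RTL5, 0.56 for SLC2A11 and 0.52 for GABBR1.

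Among genes of RNA handling, DDX39B (ENSG00000198563, GRCh38 chromosome 6, 31530219 to 31542448), an RNA helicase of splicing and mRNA export, had 248, 237 and 261 CPM in convex libraries, against 166, 119 and 175 CPM in flat ones. Its groups were well apart and its pair differences were 0.58, 0.99 and 0.58 (edgeR log2 fold change 0.70, SE 0.175, adjusted p = 0.513, blocked DESeq2 adjusted p = 0.0407). The share of its exonic bases that lie under exons of another gene is 30.8%. EIF4A1, an RNA helicase of translation initiation, had 9.61, 12.1 and 14.3 CPM in convex libraries, against 4.96, 2.13 and 8.101 CPM in flat ones, but 48.6% of its exonic bases are shared with another gene, and the authors' handling of shared bases and of strand is not given in the sources used. The same limit touches SRPK3 (30.2%), NFATC2IP-AS1 (45.2%) and LHX4 (30.8%), and among genes named further on DUSP6 (40.5%), CRABP1 (47.2%), DDIT4 (41.2%), IFITM1 (32.5%) and TUBB3 (35.8%). In NFATC2IP-AS1, LHX4, DUSP6, CRABP1 and DDIT4 the shared bases lie under exons of the opposite strand only. There the limit applies only if strand was not used in counting. SMG1, a kinase of nonsense-mediated decay, had 204, 166 and 258 CPM in convex libraries, against 104, 61.4 and 194 CPM in flat ones, and the splicing scaffold SRRM2 had 1849, 1706 and 2006 CPM in convex libraries, against 1250.4, 677 and 1591 CPM in flat ones. KCNQ1OT1, the long RNA of the imprinted KCNQ1 locus, had 14.6, 10.2 and 25.01 CPM in convex libraries, against 5.29, 4.86 and 12.9 CPM in flat ones. SMG1, KCNQ1OT1 and SMG6 were the 3 of 18 genes of nonsense-mediated decay and nuclear RNA (16.7%) that were higher in all 3 pairs, and 0 were lower. The higher genes numbered 2 of 18 with flat 2 replaced and 1 of 18 after the correction for transcript length described further on.

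**Figure D1:**
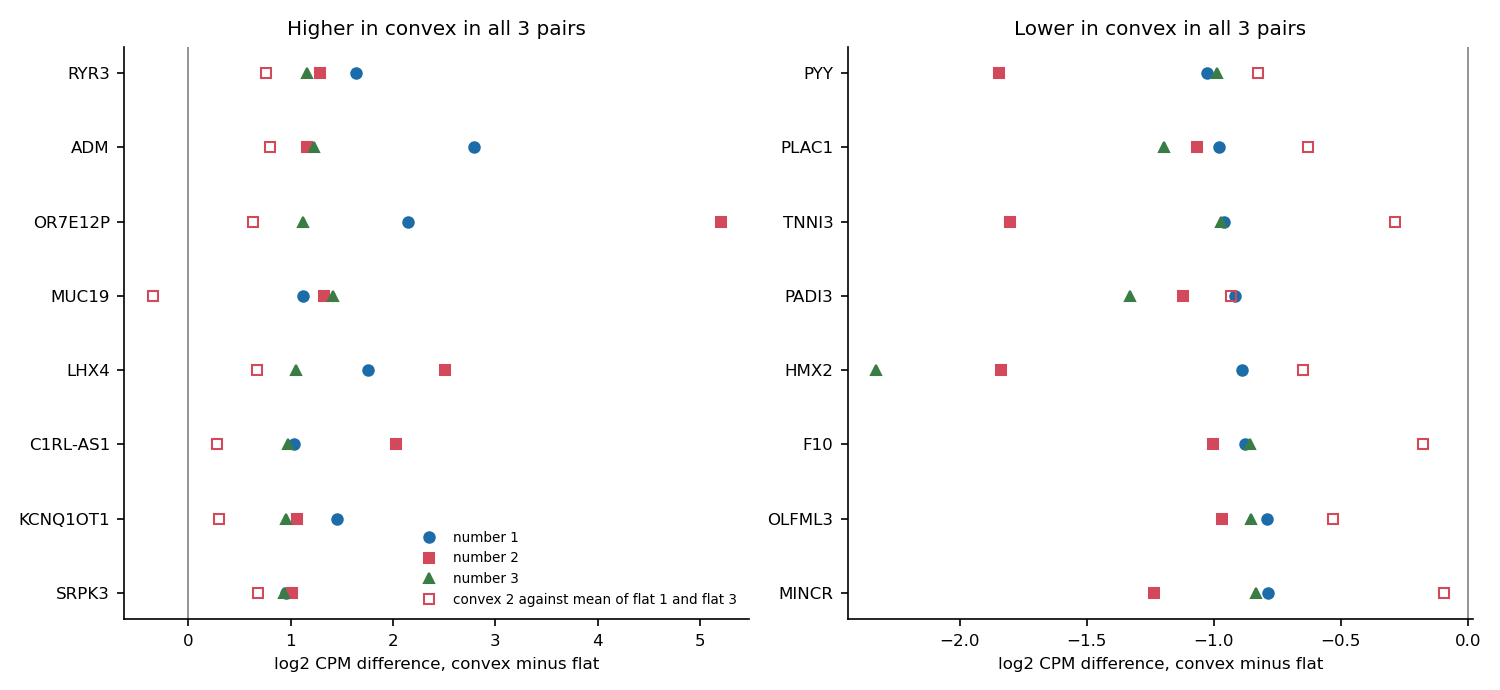
Log2 difference in CPM, convex minus flat, for the 8 genes per direction with the largest smallest pair difference. Filled symbols are the 3 number-matched pairs, and open squares set convex 2 against the mean of flat 1 and flat 3; MUC19 is on the other side of 0 there, at -0.35, and the other 15 genes keep their side.

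In the other direction, the leading genes code for proteins of several kinds. OLFML3 (ENSG00000116774, GRCh38 chromosome 1, 113979391 to 114035572), a secreted olfactomedin-like matrix protein, had 175, 164 and 103 CPM in convex libraries, against 302, 321 and 186 CPM in flat ones. Every convex library was below every flat one, and the pair differences of -0.79, -0.97 and -0.85 were close to each other (edgeR log2 fold change -0.87, SE 0.277, adjusted p = 0.513, blocked DESeq2 adjusted p = 0.0135). PLAC1 (ENSG00000170965, GRCh38 chromosome X, 134565838 to 134764322), a gene known for its expression in placenta, had 3.88, 4.42 and 2.64 CPM in convex libraries, against 7.695, 9.28 and 6.09 CPM in flat ones, also without overlap. The gut peptide hormone gene PYY had 3.93, 2.98 and 1.74 CPM in convex libraries, against 8.04, 10.8 and 3.49 CPM in flat ones. Its flat library 3 was below convex library 1, while each convex library was below its own flat partner. The homeobox gene HMX2 had 10.1, 4.88 and 0.598 CPM in convex libraries, against 18.7, 17.6 and 3.14 CPM in flat ones, with differences of -0.89, -1.84 and -2.33. The libraries numbered 3 held little of it in both groups.

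PADI3, a peptidylarginine deiminase, had 7.43, 3.64 and 1.36 CPM in convex libraries, against 14.1, 7.96 and 3.46 CPM in flat ones, and convex 2 differed by -0.93 from the mean of flat 1 and flat 3 (blocked DESeq2 adjusted p = 0.000383). The complement component gene C3 had 11.3, 5.35 and 4.73 CPM in convex libraries, against 21.4, 10.9 and 7.94 CPM in flat ones, and it gave -1.28 there. Among claudins, proteins of tight junctions, 2 were lower in all 3 pairs. CLDN3 had 11.9, 10.4 and 8.71 CPM in convex libraries, against 25.1, 31.7 and 12.4 CPM in flat ones, and CLDN5 had 15.2, 13.8 and 14.4 CPM in convex libraries, against 21.4, 48.5 and 30.2 CPM in flat ones. Neither overlapped between the groups. The third tight junction or polarity gene lower in every pair was LIN7A, which made 3 of 31 listed genes at 5 CPM or more (9.68%), near the 7.49% over all genes, and 0 were higher.

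The actin-capping gene CAPG had 15.4, 12.1 and 12.9 CPM in convex libraries, against 29.4, 38.3 and 17.9 CPM in flat ones, with the convex libraries close together and every flat library above them. SNCG, gamma-synuclein, had 24.7, 19.1 and 20.9 CPM in convex libraries, against 40.8, 63.7 and 28.5 CPM in flat ones, and TMEM141 had 5.94, 5.61 and 4.82 CPM in convex libraries, against 9.93, 15.96 and 7.72 CPM in flat ones, both without overlap and both among the 3 lower genes with the smallest p in the group test. Both genes of cellular retinoic acid binding proteins were lower in every pair. CRABP2 had 135, 106 and 134 CPM in convex libraries, against 230.4, 239 and 181 CPM in flat ones, and CRABP1 had 211, 199.6 and 135 CPM in convex libraries, against 297, 585 and 189.8 CPM in flat ones, the 2 lower genes (15.4%) of 13 listed for retinoid handling, with 0 higher. The mTORC1 inhibitor DDIT4, a stress-induced gene, had 241, 134 and 92.04 CPM in convex libraries, against 464, 575 and 118 CPM in flat ones. Flat 2 was its highest library, and the groups overlapped.

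**Figure D2:**
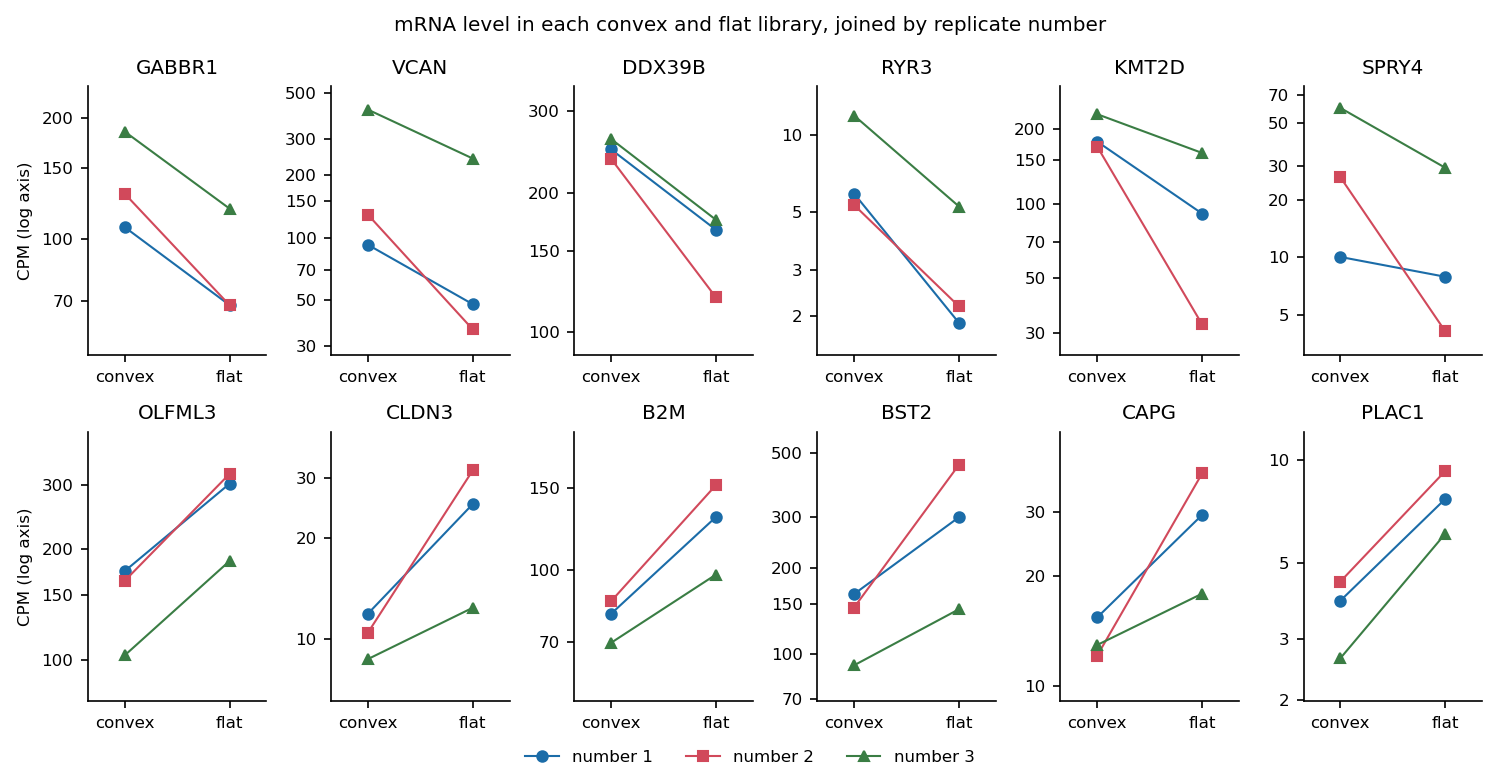
CPM on a log axis in each convex (left) and flat (right) library, joined by replicate number, for 12 genes. Lines run down to flat in the upper row and up to flat in the lower row in every pair, and libraries numbered 3 sit apart from the others in VCAN, SPRY4, OLFML3 and BST2.

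Antigen presentation had the largest share of lower members among the 51 gene lists as measured. After the length correction described further on its share, 5 of 12, was below those of cytosolic ribosomal proteins (49 of 79) and the respiratory chain (37 of 75). MHC class I molecules are held at the cell surface by beta-2 microglobulin and loaded with peptides that the TAP transporter carries into the endoplasmic reticulum, and interferon raises their transcription. Of 12 listed genes at 5 CPM or more, 6 (50%) were lower in all 3 pairs and 0 higher, against 7.49% lower over all genes. They included HLA-C, HLA-E, B2M, TAP1 and CD74, and 5 of 12 were also lower with flat 2 replaced. B2M (ENSG00000166710, GRCh38 chromosome 15, 44711487 to 44718877) had 80.4, 85.5 and 69.7 CPM in convex libraries, against 129.7, 152 and 97.6 CPM in flat ones. Convex and flat libraries did not overlap (edgeR log2 fold change -0.69, SE 0.188, adjusted p = 0.513). HLA-C had 192, 209 and 183 CPM in convex libraries, against 275, 369 and 230.3 CPM in flat ones, and the groups did not overlap. HLA-E had 40.5, 39.5 and 32.5 CPM in convex libraries, against 60.4, 69.95 and 43.5 CPM in flat ones. TAP1 had 6.97, 6.52 and 5.58 CPM in convex libraries, against 8.91, 7.94 and 7.37 CPM in flat ones, a small difference at a low level. HLA-B had 14.6, 13.6 and 11.9 CPM in convex libraries, against 23.8, 29.2 and 14.1 CPM in flat ones and lay just outside the count, with a pair 3 difference of -0.24. Class I genes are alike in sequence and differ between people, so the split of reads among them is uncertain.

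The interferon-induced tetherin gene BST2 had 162, 145 and 91.6 CPM in convex libraries, against 300.2, 457 and 144 CPM in flat ones, with pair differences of -0.89, -1.65 and -0.65. Together with ISG15, IFITM1 and PSMB8 it made 4 of 16 interferon-stimulated genes (25%) that were lower in every pair, with 0 higher. ISG15 had 15.8, 16.98 and 11.2 CPM in convex libraries, against 25.2, 47.8 and 16.2 CPM in flat ones. The list as a whole had pair medians of -0.13, 0.053 and -0.14 and a median of -0.021 with flat 2 replaced. Promoters of 3 of these genes are shown, all of them lower in every pair. They are the 250 bases before the start site in RefSeq (GRCh38.p14), for HLA-C chr6:31272093-31272342 on the minus strand, for B2M chr15:44711267-44711516 on the plus strand and for BST2 chr19:17405631-17405880 on the minus strand, with capitals marking GAAANNGAAA, a pair of GAAA blocks as in the interferon-stimulated response element, and CCAAT, searched on both strands.
HLA-C: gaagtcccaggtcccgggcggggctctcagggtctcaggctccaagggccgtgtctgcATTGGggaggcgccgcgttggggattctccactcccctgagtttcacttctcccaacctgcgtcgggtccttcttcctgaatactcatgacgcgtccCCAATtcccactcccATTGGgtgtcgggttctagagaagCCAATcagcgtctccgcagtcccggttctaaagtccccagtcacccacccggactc
B2M: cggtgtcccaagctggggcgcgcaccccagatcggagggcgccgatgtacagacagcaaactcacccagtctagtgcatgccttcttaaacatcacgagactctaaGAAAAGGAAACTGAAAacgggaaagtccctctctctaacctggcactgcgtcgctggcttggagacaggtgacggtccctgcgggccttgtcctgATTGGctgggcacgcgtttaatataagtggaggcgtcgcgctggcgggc
BST2: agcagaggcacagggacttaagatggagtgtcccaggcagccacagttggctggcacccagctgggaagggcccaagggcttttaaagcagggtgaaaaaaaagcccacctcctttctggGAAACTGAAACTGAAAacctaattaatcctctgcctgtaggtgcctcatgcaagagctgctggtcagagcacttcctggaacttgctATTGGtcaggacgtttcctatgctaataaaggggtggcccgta
The first motif was found in B2M and BST2, in each as 2 overlapping matches, and not in HLA-C, and CCAAT or its complement ATTGG was found in all 3. Of the 10 genes sought in this group 9 had a promoter in the table, and GAAANNGAAA was found in 5 of them (B2M, TAP1, BST2, ISG15 and IFITM1), counting 50 bases after the start site too. Over all 27305 genes with such a promoter, 3.65% held GAAANNGAAA and 35.7% held CCAAT. The 10 genes were picked by hand from antigen presentation and interferon-stimulated genes, most of them because they were lower in every pair. Apart from HLA-B, listed genes that were not lower in every pair were not searched. The shares therefore describe these promoters and say nothing about which genes were lower.

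Most mRNAs of cytosolic ribosomal proteins (76 of 79) and of the respiratory chain (74 of 78) were below 0 in the mean difference, where 11268 of all 23075 genes were, and fewer of them reached the minimum in every pair. Among cytosolic ribosomal protein mRNAs, 30 of 79 (38%) were lower in all 3 pairs and 0 higher, with pair medians of -0.48, -1.25 and -0.23 on the log2 scale and a median over the mean difference of -0.66, where the median over all genes was 0.013. RPL32 had 577, 597 and 488 CPM in convex libraries, against 929.9, 1428 and 618 CPM in flat ones, with convex below flat throughout. Of the nuclear-encoded respiratory chain, 33 of 75 (44%) were lower and 0 higher, with pair medians of -0.43, -1.02 and -0.24. COX5B, a subunit of cytochrome c oxidase, had 93.5, 106 and 85.4 CPM in convex libraries, against 148, 264 and 115 CPM in flat ones. Replacing flat 2 gave counts of 16 and 12 and medians of -0.32 and -0.26. Mitochondrial ribosomal proteins had 11 of 72 lower and 2 higher, the proteasome 3 of 32 lower and 0 higher, and translation factors 2 of 41 lower (4.88%) and 1 higher. Ribosomal protein genes have many processed pseudogenes, to which reads can be lost or from which they can be gained.

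Messenger RNAs encoded by the mitochondrial genome went the other way. Of 13, 5 (38.5%) were higher in all 3 pairs and 0 lower, with pair medians of 0.18, 0.63 and 0.40. MT-ND5, a subunit of respiratory complex I, had 3286, 3368 and 4401 CPM in convex libraries, against 2142, 1007 and 3224 CPM in flat ones, and each convex library was above each flat one, narrowly. MT-ND4L had 1079.7, 961 and 1514 CPM in convex libraries, against 649, 139 and 1078 CPM in flat ones, and here flat 2 alone was far below the rest. MT-CO1, a subunit of complex IV, was not among the 5, with pair differences of 0.022, 0.63 and 0.085. With flat 2 replaced, 3 of 13 were higher.

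**Figure D3:**
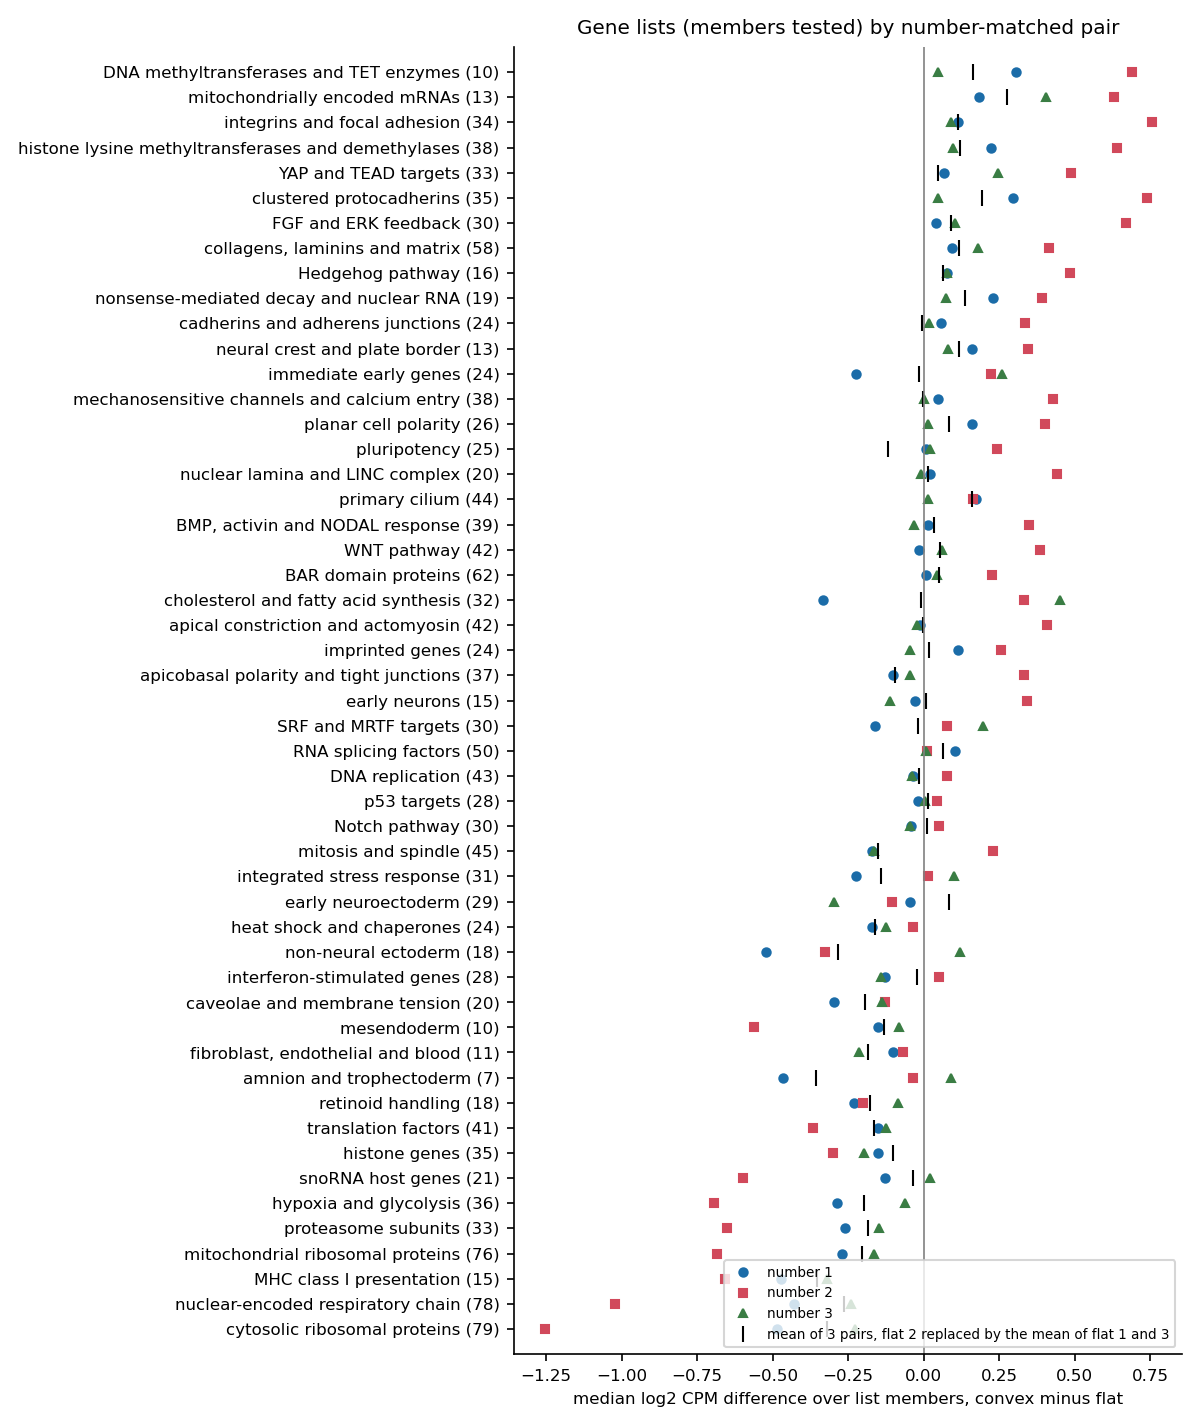
Median log2 difference in CPM, convex minus flat, over the members of each of 51 gene lists, by number-matched pair, with the number of tested members in brackets; the short vertical line replaces flat 2 by the mean of flat 1 and flat 3. Pair 2 lies farthest from 0 in most lists, and the cytosolic ribosomal and respiratory lists are below 0 in every pair.

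These groups differ in transcript length, and the difference between convex and flat libraries followed length in every pair. Genes were split by length into 5 classes of equal size. Among the shortest (up to 1716 bases), 514 of 2372 (21.7%) were lower in all 3 pairs and 75 (3.16%) higher. Among the longest (5326 bases and more), 17 of 2372 (0.717%) were lower and 269 (11.3%) higher. Medians of the shortest class were -0.29, -0.65 and -0.15 for pairs 1, 2 and 3, and those of the longest class were 0.23, 0.63 and 0.047. The part of transcript length in these results was not tested, and counts after subtracting each library's length trend are given beside them. So corrected, 441 genes (3.69%) were higher and 831 (6.95%) lower in all 3 pairs, of which 362 and 616 were among those counted before. Counts became 49 of 79 lower for cytosolic ribosomal proteins, 37 of 75 for the respiratory chain and 5 of 12 for antigen presentation. Their medians over the mean difference shrank, from -0.66 to -0.52, from -0.52 to -0.42 and from -0.48 to -0.39. For ribosomal proteins and the respiratory chain, pair 2 medians went from -1.25 to -0.91 and from -1.02 to -0.71. Pair 3 medians of those lists went from -0.23 to -0.28 and from -0.24 to -0.26. The larger counts of those lists thus came with smaller medians. For the mitochondrially encoded mRNAs, most of them short, 7 of 13 were higher after the correction. Of the genes first counted, 228 higher and 265 lower met the minimum both with flat 2 replaced and, separately, after the length correction.

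**Figure D4:**
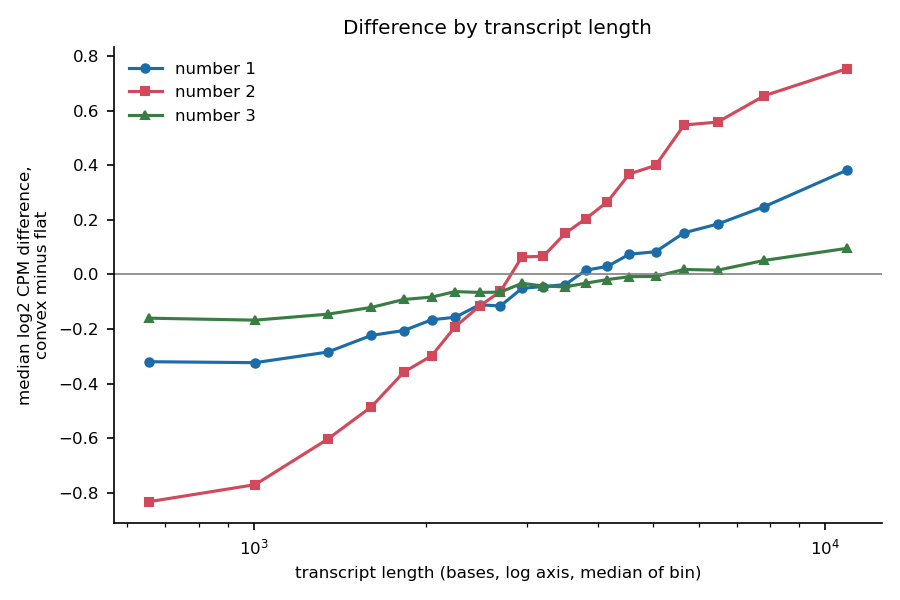
Median log2 difference in CPM, convex minus flat, in bins of genes of rising transcript length (bases, log axis), for each number-matched pair. All 3 lines run from below 0 for the shortest transcripts to above 0 for the longest, with the widest span in pair 2 and the narrowest in pair 3.

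Part of the chromatin-modifying enzymes was higher in every pair. Of 38 histone lysine methyltransferases and demethylases, 8 (21.1%) were higher in all 3 pairs and 0 lower, against 5.16% higher over all genes. Among them KMT2A, KMT2B, KMT2D, SETD1A and SETD1B methylate lysine 4 of histone H3, DOT1L methylates lysine 79, ASH1L is a further methyltransferase and KDM7A a demethylase. KMT2D (ENSG00000167548, GRCh38 chromosome 12, 49018975 to 49059774) had 178, 170.3 and 230.0 CPM in convex libraries, against 91.2, 32.5 and 160.3 CPM in flat ones, and every convex library was above every flat one. DOT1L had 153, 156 and 171 CPM in convex libraries, against 98.6, 81.4 and 124 CPM in flat ones, and KMT2A had 154, 156 and 168 CPM in convex libraries, against 91.1, 64.1 and 138 CPM in flat ones, likewise without overlap. When flat 2 was replaced, 6 of 38 were higher, and after the length correction 3 of 38 were higher and 1 lower. The DNA demethylase gene TET3 had 51.6, 47.7 and 70.1 CPM in convex libraries, against 34.7, 18.7 and 50.6 CPM in flat ones, the gene higher in every pair among 9 DNA methyltransferases and TET enzymes. With flat 2 replaced, and after the length correction, 0 of those 9 were higher. Of 11 histone genes at 5 CPM or more, 4 (36.4%) were lower in all 3 pairs and 0 higher, with 1 lower when flat 2 was replaced and 3 after the length correction. They included H1-2, a linker histone, which had 20.8, 20.7 and 27.4 CPM in convex libraries, against 28.02, 35.3 and 36.2 CPM in flat ones.

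Genes of FGF signalling, among them inhibitors through which ERK restrains its own pathway, were partly higher. Of 25 at 5 CPM or more, 5 (20%) were higher in all 3 pairs and 0 lower, against 5.16% higher and 7.49% lower over all genes. The ligand FGF2 had 68.6, 62.4 and 121 CPM in convex libraries, against 56.4, 37.1 and 86.3 CPM in flat ones. The transcription factor gene ETV5 had 4.18, 13.99 and 11.3 CPM in convex libraries, against 2.94, 2.48 and 7.14 CPM in flat ones. Inhibitors of the pathway followed: SPRY4 had 10.1, 26.2 and 60.1 CPM in convex libraries, against 7.94, 4.13 and 29.3 CPM in flat ones, the ERK phosphatase DUSP6 had 2.03, 8.68 and 11.1 CPM in convex libraries, against 1.39, 2.78 and 5.31 CPM in flat ones, and the receptor antagonist IL17RD had 5.901, 10.1 and 9.503 CPM in convex libraries, against 3.07, 5.03 and 7.402 CPM in flat ones. Library 3 of each group held the highest level of SPRY4, FGF2 and DUSP6 among its group, and the groups overlapped in all 5 genes. Counts were 4 of 25 with flat 2 replaced and 5 of 25 after the length correction. SPRY2 lay just outside, with differences of 0.24, 0.92 and 0.30, and ETV4 was split, at -0.19, 1.02 and 0.84.

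Few of the genes through which cells sense or resist bending were higher or lower in every pair. Among matrix genes, VCAN (ENSG00000038427, GRCh38 chromosome 5, 83471465 to 83582303), the matrix proteoglycan versican, had 92.3, 129 and 415 CPM in convex libraries, against 47.6, 35.96 and 241 CPM in flat ones, with differences of 0.96, 1.84 and 0.79. Of 49 collagens, laminins and matrix genes 3 were higher and 1 lower, and of 28 integrins and focal adhesion genes 3 were higher and 1 lower. In the list of 39 apical constriction and actomyosin genes, the guanine nucleotide exchange factor TRIO and the kinase ROCK2 were higher and the small GTPase RHOB lower. TRIO had 115, 123 and 167 CPM in convex libraries, against 71.9, 35.01 and 127 CPM in flat ones, with flat 2 far below the other flat libraries. Channels and calcium entry gave 2 of 30 higher, PKD1 and PKD2, and 4 lower, among them TRPV4 at 5.47, 4.91 and 2.96 CPM in convex libraries, against 8.898, 6.105 and 4.33 CPM in flat ones. The stretch-gated channel gene PIEZO1 was not among them, at 86.1, 72.4 and 127 CPM in convex libraries, against 77.5, 51.9 and 90.5 CPM in flat ones.

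YAP and TEAD targets had 3 of 30 higher (PTPN14, DOCK5 and ASAP1), and 0 with flat 2 replaced. CCN1 and CCN2, the targets most used as a readout of YAP, were lower in pair 1 and higher in pairs 2 and 3, at -0.48, 0.81 and 0.76 and -0.51, 0.92 and 1.05. SRF and MRTF targets gave 1 higher and 2 lower of 28. BAR domain proteins gave 1 higher and 2 lower of 55, caveolae and membrane tension 2 lower of 16, and the nuclear lamina and LINC complex 2 lower of 18. Beside the background of 5.16% higher and 7.49% lower, the shares of higher genes above it were 10.7% for integrins and focal adhesion, 10% for YAP and TEAD targets, 8.33% for planar cell polarity (2 of 24), 6.67% for channels and 6.12% for matrix. The shares of lower genes above it were 13.3% for channels, 12.5% for caveolae and 11.1% for the lamina. Each rests on 2 to 4 genes, and on 0 to 2 with flat 2 replaced. After the length correction, higher genes numbered 1 each for integrins and focal adhesion, YAP and TEAD targets and matrix. They numbered 0 for planar cell polarity and for channels. Lower genes then numbered 4 for channels, 3 for caveolae and 0 for the lamina. Cilium genes gave 2 of 42 higher, CEP290 and DYNC2I1, and 1 lower, and 0 in both directions after the length correction. In the Hedgehog list the transcription factor GLI2 was the gene higher in all 3 pairs, of 13 (7.69%), at 96.6, 111 and 129 CPM in convex libraries, against 68.4, 46.1 and 102 CPM in flat ones. Notch genes gave 3 of 24 lower (12.5%), MFNG, HEYL and DLL3, and 0 higher. WNT5A, FZD9 and DKK3 were the WNT genes that passed the minimum, the first higher and the other two lower.

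Few lineage genes reached the minimum in every pair. Of 21 early neuroectoderm genes, 0 were higher and 0 lower in all 3 pairs, and the same held for 9 of non-neural ectoderm, 5 of neural crest and plate border, 4 of amnion and trophectoderm, 1 of mesendoderm and 7 of fibroblast, endothelial and blood. Early neuron genes had 1 of 7 higher, TUBB3, and 0 lower. Pluripotency had 1 of 19 higher, L1TD1, at 188, 229 and 586 CPM in convex libraries, against 145, 154 and 478 CPM in flat ones, and 0 lower. SOX2 had 773, 753 and 470.1 CPM in convex libraries, against 822, 741 and 578 CPM in flat ones, and OTX2 had 279, 289.8 and 267 CPM in convex libraries, against 289, 284 and 294 CPM in flat ones, each within the spread of the libraries. POU5F1 was lower in each pair, at -0.58, -0.53 and -0.09, and did not reach the minimum in pair 3. PAX6 had 3.28, 7.097 and 1.09 CPM in convex libraries, against 1.68, 4.48 and 1.10 CPM in flat ones and NANOG was at or below 0.475 CPM in each of the 6 libraries. The 10 early neuroectoderm markers, all above 1 CPM on average, summed to 2223, 2490 and 1238 CPM in convex libraries, against 2375, 3403 and 1507 CPM in flat ones. The sum was lower in the convex library of each pair, while the groups overlapped. For pluripotent cells the sums ran from 3286 to 4799 CPM in convex and from 3017 to 4723 CPM in flat libraries. Non-neural ectoderm markers summed to between 449 and 927 CPM in convex and between 680.5 and 884 CPM in flat libraries. The part of these markers in the results above was not tested. In bulk RNA, fewer cells of a type and less RNA per cell cannot be told apart.

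Other lists with few genes on either side included DNA replication (1 higher, 0 lower of 42), mitosis and spindle (0 higher, 4 lower of 43), splicing factors (2 higher, 0 lower of 49), hypoxia and glycolysis (1 higher, 3 lower of 32), the integrated stress response (1 higher, 1 lower of 26), snoRNA host genes (1 higher, 2 lower of 19), clustered protocadherins (1 higher, 0 lower of 21), imprinted genes (1 higher, 1 lower of 16) and heat shock genes (0 and 0 of 23). Of these lists, snoRNA host genes (10.5%), hypoxia and glycolysis (9.38%) and mitosis (9.30%) had lower shares above the 7.49% over all genes. Imprinted genes (6.25%) and snoRNA host genes (5.26%) had higher shares above 5.16%. Hypoxia and glycolysis genes were mostly below 0 in the mean difference, 32 of 36 tested. Their pair medians were -0.29, -0.70 and -0.063, and their median was -0.32, or -0.37 after the length correction. Cholesterol synthesis, immediate early, p53 target, BMP response and cadherin genes had 0 in both directions. By gene type, 71 of 432 non-coding and other RNAs (16.4%) and 22 of 97 genes absent from the annotation (22.7%) were higher, against 504 of 11198 protein-coding genes (4.50%). Pseudogenes gave 20 of 229 higher and 41 (17.9%) lower.

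Values on the concave plate are set beside these for a few of the leading genes. Convex and concave plates are set against the same 3 flat libraries, so the 2 comparisons are not independent. RYR3 had 4.103, 7.82 and 6.52 CPM on the concave plate, GABBR1 88.4, 132 and 149 CPM and OLFML3 257, 164 and 177 CPM. Convex against concave, edgeR called 0 of 23075 genes (0%), with 65 at an unadjusted p under 0.05. For these 3 genes the log2 fold change of convex over concave was 0.32, 0.19 and -0.44 (edgeR adjusted p of 1.00 each). For DDX39B, PI4KAP2 and MRNIP, the 3 higher genes with the smallest p against flat, it was 0.027, 0.18 and 0.053. Their values of convex over flat were 0.70, 0.69 and 0.62. For PLAC1, SNCG and TMEM141, the 3 such lower genes, it was -0.36, -0.16 and -0.22 over concave and -1.07, -1.04 and -1.04 over flat.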

How the data were processed

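Raw counts per gene were deposited by the authors; per the submitters' processing notes they were made with HISAT2 and featureCounts on GRCh38, and their gene models and strand option are not given in the sources used. Per the labels' protocols, libraries were strand-specific and made from poly-T purified mRNA. All 9 columns held whole numbers, and the table had 0 columns of other samples.

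In R 4.3.3, genes were kept by filterByExpr, scaled by TMM and fitted in all 9 libraries with edgeR 4.0.16 (quasi-likelihood, 1 coefficient per group, Benjamini-Hochberg adjustment, two-sided), giving a common biological coefficient of variation of 0.329 and a median standard error of 0.221 for genes averaging at least 5 CPM. Pair differences are of log2 CPM with a prior count of 2. DESeq2 1.42.0, limma 3.58.1, other scalings and filters, the replicate block, left-out libraries and a transcript length correction (lowess, span 0.3, GENCODE 29 median principal transcript) were alternatives; 99.2% of genes at 5 CPM had a length. Replicates differed by far more than sampling noise (chi-square per degree of freedom 19.7 to 284.6).

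Deviations from the group mean correlated between same-numbered convex and flat libraries at r = 0.372, 0.397 and 0.62, each over the minimum of 0.1 for pairing. Unlike numbers gave -0.464 to 0.229. The highest of these, convex 1 with flat 2, also passed the minimum, so the minimum alone does not single out like numbers. Members and the 51 gene lists were chosen with earlier results of these data known. Named genes were, per direction, the 3 smallest p-values (no gene was called), the 12 with the largest smallest pair difference, the 8 with the smallest blocked p and up to 3 members of each list, plus SOX2, OTX2, POU5F1, PAX6 and NANOG, 139 in all. Not all are printed, and some are not reported here. Others named (HLA-B, HLA-C, TAP1, CD74, KMT2A, FGF2, SPRY2, SPRY4, ETV4, MT-CO1, PIEZO1, CCN1, CCN2 and list members in counts) were chosen after their values were seen.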

Additional observations from a re-analysis of the deposited data

How the results depend on the processing

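Over 4025 recomputations of 139 named genes, 3755 kept their direction and side of the threshold, 249 passed it where the reported test did not, and 21 changed direction. Of 459 recomputed list medians, 439 moved by less than the spread between pairs. edgeR called 0 genes in most designs; the cause of the exceptions was not tested. The blocked design called 1 gene without the pair numbered 2, and DESeq2 called 1, or 189 with the replicate block. Chosen after seeing the data, the block on the 4 libraries numbered 1 and 3 called 124, DESeq2 with the block on the 6 libraries alone called 1094, and the block without each library in turn called from 0 to 1859, 1859 without flat 3 and 1 each without convex 2 and without flat 2. At an unadjusted p under 0.05 there were 2135 genes, and leaving out 1 library without a block gave from 815 (without flat 2) to 5831 (without flat 3) such genes, with 0 called. Higher and lower genes in all 3 pairs numbered 107 and 84 at a minimum of 0.5, 2856 and 3803 with no minimum, 2259 and 1857 over every gene tested, 348 and 570 at 20 CPM or more, and 423 and 376 with flat 2 replaced; without pair 2 they numbered 789 and 1061.

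With flat 2 replaced, list medians became 0.048 for YAP and TEAD targets, -0.0060 for cadherins, -0.12 for pluripotency, 0.085 for early neuroectoderm, -0.021 for interferon-stimulated genes and -0.10 for histone genes. With the length correction they became 0.031 for primary cilium, -0.044 for cadherins, 0.013 for matrix, -0.095 for Notch and -0.12 for histone genes. Library size alone gave 0.064 for p53 targets. Leaving out 1 number at a time gave ranges of -0.24 to -0.069 for caveolae, -0.26 to -0.063 for fibroblast, endothelial and blood, 0.035 to 0.089 for p53 targets, -0.24 to -0.079 for interferon-stimulated genes, -0.20 to -0.049 for histone genes and -0.10 to 0.12 for imprinted genes.

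Direction changed for INTU (-0.067, and -0.062 with the block) and LAMA2 (-0.042 and -0.071) under the length correction. With 1 library left out, the log2 fold change ranged from -0.31 (without convex 3) to 1.13 for L1TD1, from -0.81 to 0.11 (without flat 1; 0.069 without convex 3) for HEYL, from -0.25 to 0.099 (without convex 3; 0.014 without flat 1) for SOX2, from -0.32 (without convex 3) to 3.32 for ADM, from -0.028 (without convex 3) to 1.51 for EME2, from -0.16 (without convex 2) to 1.46 for PAX6 and, with the block, from -0.098 to 0.023 (without convex 3) for OTX2. NANOG, near 0 counts, gave -0.21 by limma voom, -0.16 with the block without pair 2, -0.0078 with the block on numbers 1 and 3, from -2.34 to 2.51 with 1 library left out (-0.12 without flat 2), and from -0.63 to 1.08 with the block as well (-0.31 without convex 2, -0.062 without flat 2). With all 9 libraries, the replicate block in edgeR changed no call. The median standard error of 0.221 and the biological coefficient of variation of 0.329 limit what a test of single genes can show with 3 libraries a group.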

Other observations

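Reads of the adult beta-globin gene differed between the groups in raw counts. HBB, noticed after its values were seen, had 0, 0 and 0 counts in convex libraries 1, 2 and 3 and 196, 4 and 703 counts in flat libraries 1, 2 and 3, with 0, 0 and 2 counts in the concave ones. HBA1 had 0, 1 and 1 counts in convex and 7, 0 and 13 in flat libraries, and HBA2 had 0, 2 and 2 in convex and 6, 0 and 16 in flat libraries. The blocked edgeR test called HBB without the pair numbered 2 (adjusted p = 0.0029), without convex 2 (adjusted p = 0.034) and without flat 2 (adjusted p = 0.00245). HBB did not pass the filter on low counts in the test over all 9 libraries. In the fits that called it, it passed the filter only through its counts in flat 1 and flat 3. Those calls therefore restate these counts and add no support to them. Whether these reads came from the cells of these cultures was not tested, so the counts and the calls describe the libraries alone.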
